A study of Homo sapiens with 4 samples.

Results

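The genes described here are 45 genes of DNA replication and cell division, taken by symbol from the 32973 rows of a gene-level RPKM table (reads scaled by the gene's length and by the reads assigned in the library). All 45 symbols had a row. The table came from RNA sequencing of total RNA from T24T and UMUC3 cells, 2 human lines from bladder cancer. T24T is a more aggressive derivative of the bladder carcinoma line T24, and UMUC3 is a separate bladder carcinoma line. The 4 groups were T24T with a BCUC-1 overexpression plasmid, T24T with the empty vector, UMUC3 with the BCUC-1 plasmid and UMUC3 with the empty vector, all stably transfected and grown in the same serum-supplemented medium. BCUC-1 is the circular RNA hsa_circ_0001361. The study set out to screen for genes downstream of it.

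Each group held 1 library, with 23588847 assigned reads in T24T BCUC-1, 23679229 in T24T vector, 22730112 in UMUC3 BCUC-1 and 26497894 in UMUC3 vector. The BCUC-1 and vector libraries of a line are separate stable transfectants, each sequenced in 1 library, and the labels do not say whether a transfectant is a clone or a pool. Every p-value therefore rests on the spread in these 4 libraries, pooled by limma over all genes, and not on replicate cultures. Markers of the labelled cell type were mixed: KRT8, KRT18 and KRT7, keratins of simple epithelia, had 146, 88.2 and 25.0 RPKM in T24T BCUC-1 and 13.2, 42.1 and 3.02 RPKM in UMUC3 BCUC-1. CDH1, KRT19, EPCAM, GATA3 and UPK3A were at or near 0 in every library, and 4 of the 12 epithelial and urothelial markers reached 1 RPKM in at least 2 libraries. The 8 endothelial and fibroblast markers were each under 1 RPKM in every library and summed to 0.237, 0.404, 0.824 and 0.597 RPKM in T24T BCUC-1, T24T vector, UMUC3 BCUC-1 and UMUC3 vector. Among leukocyte markers, CD14 was near 0 and CD68, a lysosomal protein of macrophages, had 6.78, 7.45, 124 and 119 RPKM in the same order of libraries. The part of these markers in the results was not tested.

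A dividing cell passes from G1 into S phase, when its DNA is copied, and through G2 into mitosis, when the chromosomes are parted. Cyclins switch on the cyclin-dependent kinases that drive each step, E2F factors turn on S phase genes, and the FOXM1 and MYBL2 factors act on G2 and mitosis genes. Many promoters of the later group carry a CHR element (cell cycle genes homology region) and CCAAT boxes, which bind the MuvB complexes and NF-Y, while many S phase promoters carry E2F sites. Transcripts of these genes peak in different phases, so in a bulk library more cells in a phase and more RNA per cell cannot be told apart.

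The promoters that follow are those of the genes with the highest and the lowest difference between T24T and UMUC3 among the G2 and mitosis members (CCNB1 and CCNB2) and among the S phase members (PCNA and CHEK1), so that the sequences of genes that differ in opposite directions can be read side by side. They are RefSeq sequences of GRCh38.p14, 250 bases before to 50 after the RefSeq start, read in the direction of transcription. Their positions are chr5:69166900-69167199 on the plus strand for CCNB1, chr15:59104896-59105195 on the plus strand for CCNB2, chr20:5126573-5126872 on the minus strand for PCNA and chr11:125625979-125626278 on the plus strand for CHEK1. Capitals mark every match on either strand to the CHR (TTTGAA), the CCAAT box (CCAAT) and the E2F sites (TTTGGCGC, TTTCCCGC, TTTCGCGC or TTTGCCGC).
CCNB1: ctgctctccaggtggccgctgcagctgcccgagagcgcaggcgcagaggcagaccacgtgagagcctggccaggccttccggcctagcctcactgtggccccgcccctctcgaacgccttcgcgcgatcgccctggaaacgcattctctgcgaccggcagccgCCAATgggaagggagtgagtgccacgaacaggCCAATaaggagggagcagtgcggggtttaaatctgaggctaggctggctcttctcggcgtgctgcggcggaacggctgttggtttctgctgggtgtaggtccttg
CCNB2: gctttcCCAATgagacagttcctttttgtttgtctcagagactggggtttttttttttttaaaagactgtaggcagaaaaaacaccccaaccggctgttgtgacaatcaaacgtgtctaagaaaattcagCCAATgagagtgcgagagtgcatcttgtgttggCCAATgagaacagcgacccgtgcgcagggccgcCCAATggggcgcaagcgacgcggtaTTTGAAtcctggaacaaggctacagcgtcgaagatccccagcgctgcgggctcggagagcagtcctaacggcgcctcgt
PCNA: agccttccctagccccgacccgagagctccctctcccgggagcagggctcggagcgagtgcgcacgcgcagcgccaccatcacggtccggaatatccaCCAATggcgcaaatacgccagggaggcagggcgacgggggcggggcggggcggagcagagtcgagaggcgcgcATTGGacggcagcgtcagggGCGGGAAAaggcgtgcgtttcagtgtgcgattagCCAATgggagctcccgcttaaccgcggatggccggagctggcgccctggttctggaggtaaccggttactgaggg
CHEK1: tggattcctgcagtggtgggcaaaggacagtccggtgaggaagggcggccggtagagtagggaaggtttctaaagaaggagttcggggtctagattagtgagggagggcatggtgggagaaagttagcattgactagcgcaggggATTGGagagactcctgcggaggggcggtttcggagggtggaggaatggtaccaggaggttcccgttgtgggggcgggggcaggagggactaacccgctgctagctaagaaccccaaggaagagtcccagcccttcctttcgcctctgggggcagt
CCNB1, with the highest difference of all 45 members, held 2 CCAAT boxes, at positions -87 and -55 from the start. It held no match to TTTGAA, the only CHR spelling searched. CCNB2, with the lowest, held 4 CCAAT boxes, at -244, -120, -87 and -54, and a CHR match at -29. PCNA held 3 CCAAT boxes and an E2F match on the reverse strand at -59. CHEK1 held a single CCAAT box, on the reverse strand at -105. Its window lies inside the gene as counted, which starts at chr11:125625136.

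RefSeq promoters were matched for 35 of the 45 members. The windows of CENPA, UHRF1, CHEK1, PLK1, CDT1, GINS2, AURKB, MCM7, RRM2, KIF20A and CDC45 lay wholly inside the gene as counted. CCNE2, CDK2, AURKA, BIRC5, MCM4, MCM5, FOXM1, UBE2C, TPX2 and TTK had no entry in the table used. The CHR was in 12 of 18 G2 and mitosis promoters (66.7%) and in 0 of 17 S phase promoters, against 15.4% of all 27305 promoters of the same length. E2F sites were in 11 of 17 S phase promoters (64.7%) and 2 of 18 G2 and mitosis promoters (11.1%), against 3.33% of all promoters. CCAAT boxes were in 15 of 18 G2 and mitosis promoters (83.3%), 11 of 17 S phase promoters (64.7%) and 35.7% of all. Both a CHR and a CCAAT box were in 10 of 18 G2 and mitosis promoters (55.6%) and 6.08% of all. The matches lay close to the start, with 11 of 15 CHR matches, 38 of 59 CCAAT boxes and 15 of 20 E2F matches within 100 bases. In 3 members matches to different motifs overlapped. Grouped by the difference between the lines, the CHR was in 7 of 20 promoters of members called higher in T24T, 2 of 7 of those called lower and 3 of 8 of those not called. E2F sites were in 6 of 20, 2 of 7 and 5 of 8 of the same classes. These are matches of letters, with a single spelling of the CHR searched, and binding was not measured.

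**Figure D1:**
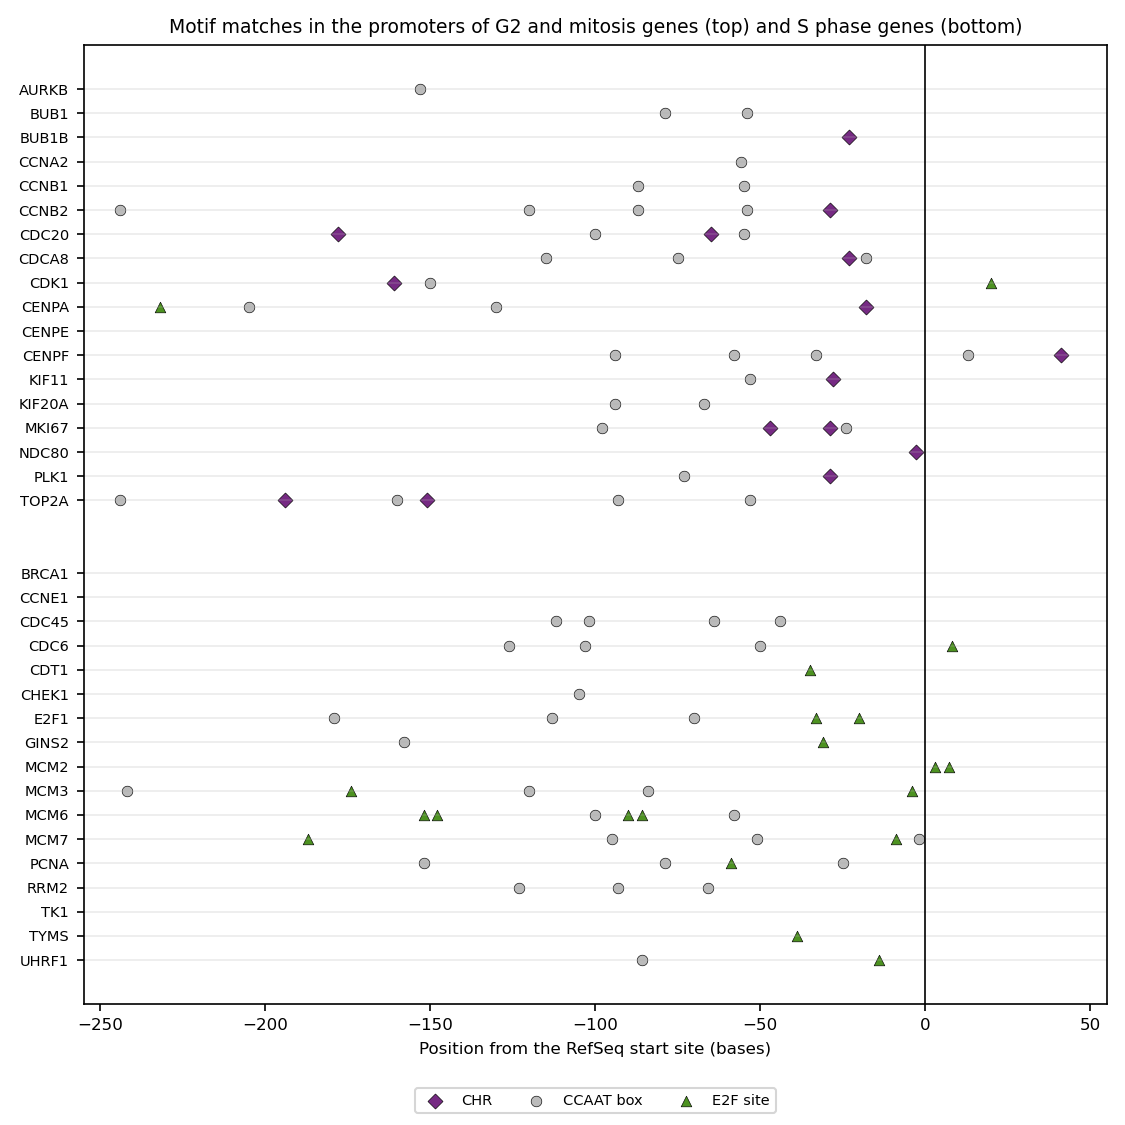
Positions of CHR, CCAAT box and E2F matches, in bases from the RefSeq start site, in the promoters of 18 G2 and mitosis genes (top) and 17 S phase genes (bottom); each symbol is 1 match on either strand. CHR matches stand in 12 of the 18 upper rows and 0 of the 17 lower ones, and E2F matches in 2 upper and 11 lower rows.

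All 45 members were well covered. The least-read member, CDT1, which loads the replicative helicase, had 572 reads in T24T BCUC-1, 500 in T24T vector, 452 in UMUC3 BCUC-1 and 438 in UMUC3 vector. The highest levels were those of TPX2, a spindle assembly factor, in T24T, at 186 RPKM with BCUC-1 and 182 with vector. In UMUC3 the highest were those of TYMS, thymidylate synthase, at 162 RPKM with BCUC-1 and 154 with vector. The member median was near-equal in the 4 libraries, at 38.9, 38.8, 38.3 and 37.9 RPKM in T24T BCUC-1, T24T vector, UMUC3 BCUC-1 and UMUC3 vector. The summed levels were 2445 RPKM in T24T BCUC-1, 2406 in T24T vector, 2142 in UMUC3 BCUC-1 and 2089 in UMUC3 vector. In reads the 45 genes took 1.04%, 1.03%, 0.881% and 0.865% of the same libraries. The order of the members by level was close in both lines, with a Spearman rho of 0.902 over 45 genes that share each library's depth.

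Some members share exon bases with another listed gene, and whether the counting used strand is not given in the sources used here. This touched 14 members, of which 6 shared at least 10% of their bases: CCNE2 (37% with INTS8), TYMS (18.8% with ENOSF1), FOXM1 (15.9% with ITFG2), CDK2 (14.5% with RP11-973D8.4), PLK1 (11.6% with CTD-2196E14.5) and BUB1B (10.2% with BUB1B-PAK6). Their values may hold reads of the partner. Of the 6 listed pseudogenes of members, CDC20P1 had 102, 135, 246 and 241 reads in T24T BCUC-1, T24T vector, UMUC3 BCUC-1 and UMUC3 vector, and each of the others had at most 6 in any library.

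**Figure D2:**
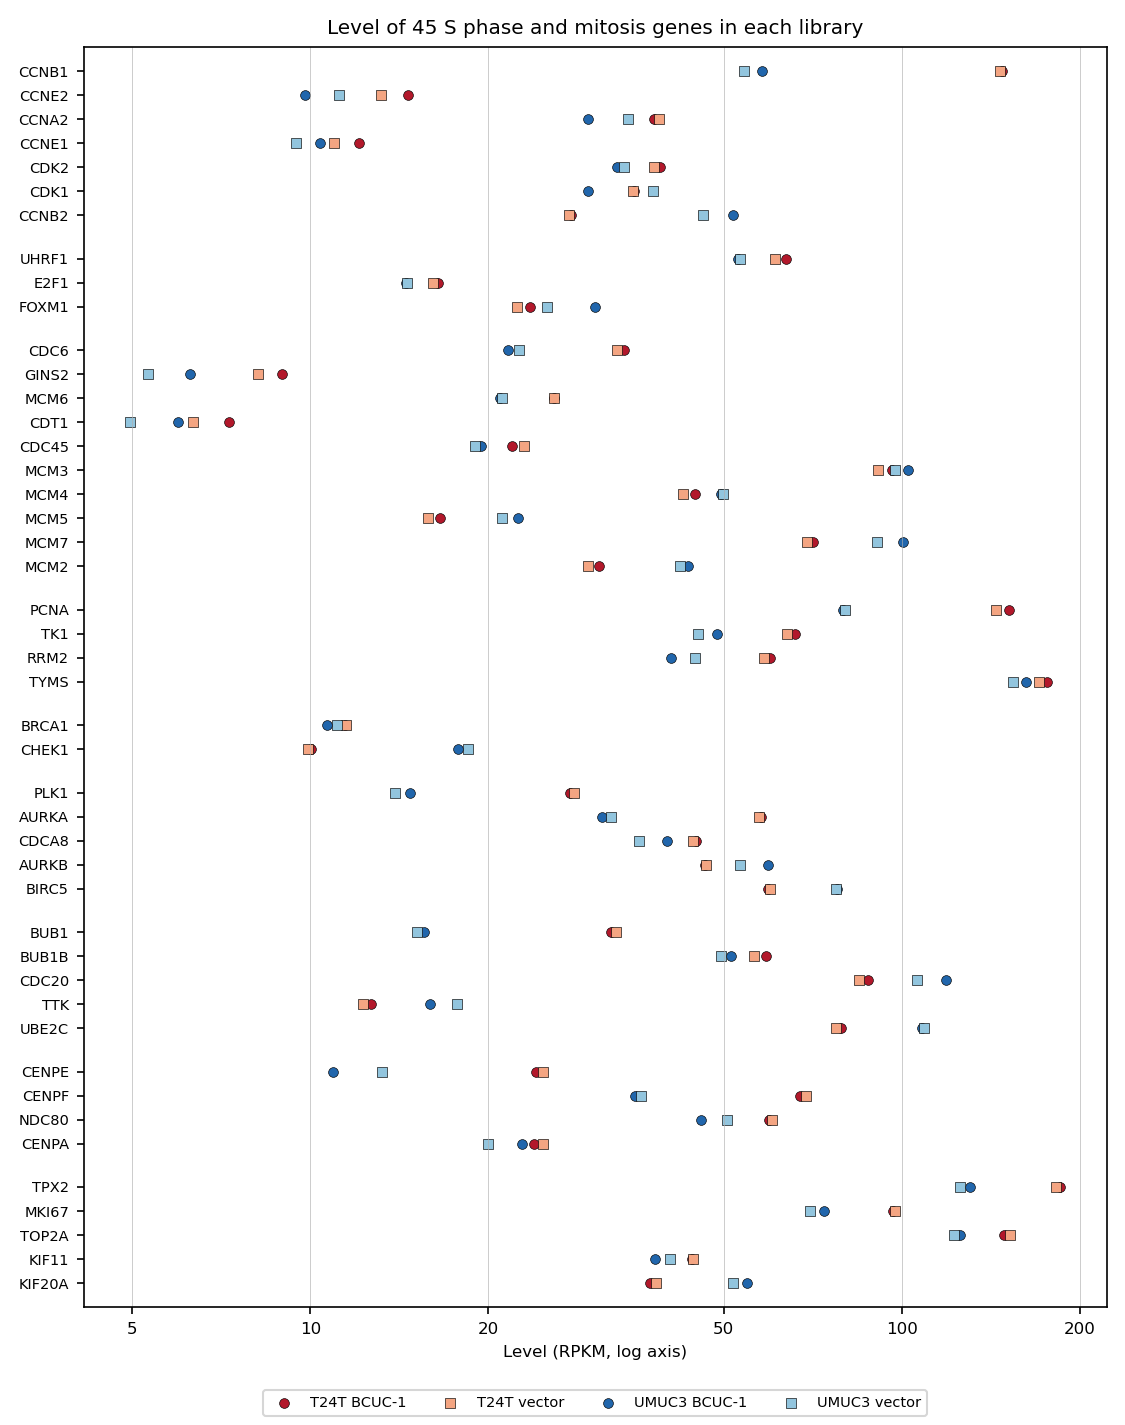
Level of each of the 45 genes in RPKM on a log axis, grouped by role from cyclins (top) to spindle motors and mitotic chromosomes (bottom), with circles for BCUC-1 and squares for vector, red for T24T and blue for UMUC3. The circle and the square of a line lie close together for most genes, and the lines stand apart for CCNB1, at 148 and 146 RPKM in T24T against 57.9 and 54.2 in UMUC3.

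The lines were compared first. The difference between T24T and UMUC3 was tested with limma on log2(RPKM + 1) over 15415 genes with at least 1 RPKM in at least 2 libraries, all 45 members among them. With terms for line and for treatment, 1 residual degree of freedom remained. For each gene it holds how far the BCUC-1 differences of the lines part, not the spread of cultures within a line. To it limma added 5.55 prior degrees of freedom from all genes. At a Benjamini-Hochberg adjusted p under 0.05, 24 members were higher in T24T (53.3%), 13 were lower (28.9%) and 8 were not called. Of all genes tested, 40.8% were higher in T24T and 29.6% lower, 70.4% in either direction. The members' 37 calls, 82.2%, were thus set in a comparison in which most genes differed. A log2(RPKM + 1) difference of at least 1 was found in 2 of 45 members (4.44%), CCNB1 and BUB1, against 17.9% of all genes tested and 13.7% of the 6842 genes with mean levels in the members' range. In the ratio of mean RPKM, without the pseudocount of 1, CENPE was also at least 2-fold apart, at 2.02. The median absolute difference was 0.38 in members, 0.45 in all genes and 0.41 in that range of levels. Libraries of one line lay wholly above those of the other for 44 of 45 members, against 85.7% of all genes, and CDK1 was the exception.

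The direction split depended on the scaling. The members' median difference was 0.20 and that of all genes 0.10. Scaling the libraries to equal medians moved the median of all genes by -0.12, and the members then gave 13 higher and 14 lower calls. The share of called members that were higher was 64.9% with RPKM as deposited and 48.1% with equal medians. All 13 lower calls and 13 of the 24 higher calls stood under both scalings. The 11 calls lost with equal medians, all of higher members, were CCNE2, CCNA2, CDK2, UHRF1, CDT1, MCM6, CDC45, CDCA8, BUB1B, NDC80 and TOP2A. Without a floor on low values 11 calls were lost, those of CCNE2, CCNA2, CDK2, UHRF1, CDT1, CDC45, CDCA8, BUB1B, FOXM1, AURKB and MCM4. Both phases held calls in each direction: 11 of 21 S phase genes were higher and 5 lower (median 0.20), and 13 of 24 G2 and mitosis genes were higher and 8 lower (median 0.21).

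**Figure D3:**
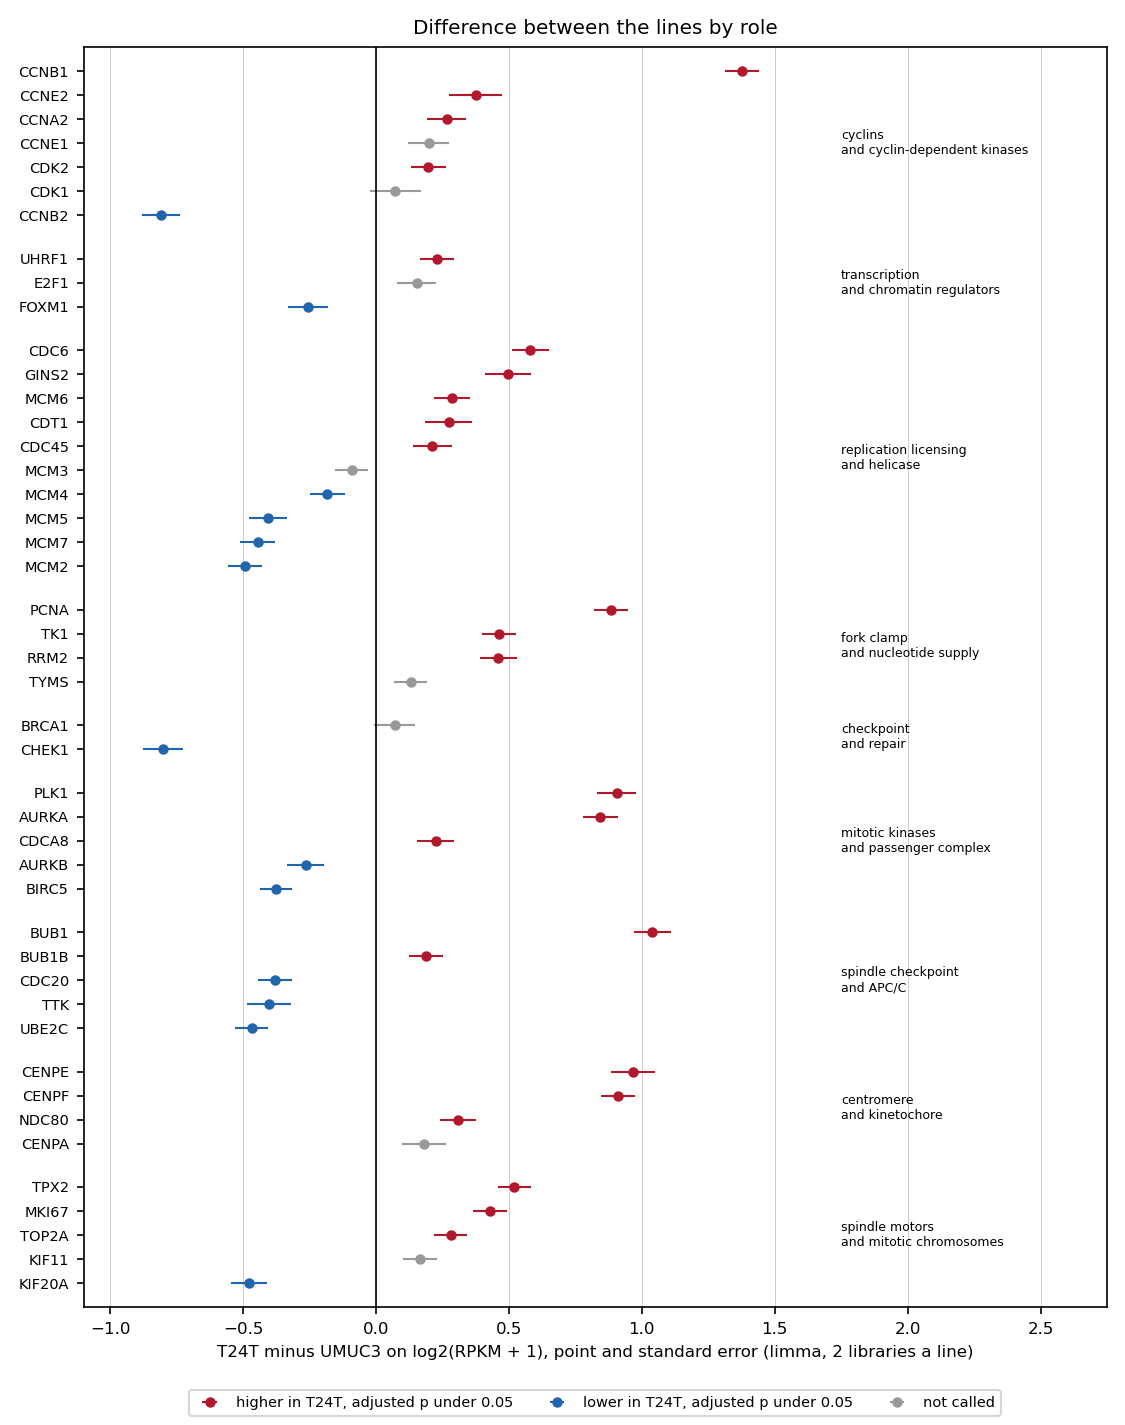
Difference between T24T and UMUC3 on log2(RPKM + 1) for each gene by role, with limma's standard error as the bar; red is called higher in T24T, blue called lower and grey not called. Most roles hold genes on both sides of 0, CCNB1 at 1.38 and CCNB2 at -0.81 in the same one, while the fork clamp and nucleotide genes and the centromere and kinetochore genes lie above 0 as deposited (with equal medians TYMS, not called, lies below 0).

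Among the 7 cyclins and cyclin-dependent kinases, 4 were higher in T24T, 1 was lower and 2 were not called. CCNB1, cyclin B1, the main mitotic partner of CDK1, had 148 RPKM in T24T BCUC-1 and 146 in T24T vector, against 57.9 in UMUC3 BCUC-1 and 54.2 in UMUC3 vector. Both T24T libraries lay far above both UMUC3 libraries, a 2.62-fold difference in mean level (log2 difference 1.38, SE 0.063, limma's Benjamini-Hochberg adjusted p = 6.26e-06). CCNB2, cyclin B2, whose protein is found mainly at the Golgi, ran the other way, with 27.6 and 27.4 RPKM in T24T BCUC-1 and vector, against 51.8 and 46.1 in UMUC3 BCUC-1 and vector. Its mean level in T24T was 0.561 times that in UMUC3 (log2 difference -0.81, SE 0.071, limma's Benjamini-Hochberg adjusted p = 9.07e-05). The ratio of CCNB1 to CCNB2 per length was therefore 5.36 and 5.35 in T24T BCUC-1 and vector, against 1.12 and 1.17 in UMUC3 BCUC-1 and vector. The B-type cyclins differed from each other more between the lines than either did alone, by 2.22 on the log2 scale.

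The other cyclins differed less. CCNE2, a cyclin E that drives S phase entry with CDK2, had a log2 difference of 0.37, CCNA2, the S phase and G2 cyclin, 0.27, and CDK2 itself 0.20, and these 3 calls were lost with equal medians. CCNE1, the other cyclin E, had 12.1 and 10.9 RPKM in T24T BCUC-1 and vector, against 10.4 and 9.44 in UMUC3 BCUC-1 and vector, and was not called. CDK1, the mitotic kinase, had 35.3 and 35.2 RPKM in T24T BCUC-1 and vector, against 29.5 and 37.9 in UMUC3 BCUC-1 and vector. Its T24T levels lay between those of the UMUC3 libraries (log2 difference 0.073, limma's Benjamini-Hochberg adjusted p = 0.518), so CDK1 was not called while its cyclin B partners differed in opposite directions.

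Of the 3 regulators of transcription and chromatin, UHRF1, which carries DNA methylation through replication, was higher in T24T by 0.23 on the log2 scale, a call lost with equal medians. FOXM1, the activator of G2 and mitosis genes, was lower in T24T, with 23.5 and 22.3 RPKM in T24T BCUC-1 and vector, against 30.2 and 25.1 in UMUC3 BCUC-1 and vector (log2 difference -0.26, SE 0.077, limma's Benjamini-Hochberg adjusted p = 0.0215). This call was lost without a floor (limma's Benjamini-Hochberg adjusted p = 0.0977) and without the treatment term (0.0613). E2F1, the activator of S phase genes, had 16.5 and 16.1 RPKM in T24T BCUC-1 and vector, against 14.5 and 14.6 in UMUC3 BCUC-1 and vector, and was not called.

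The 10 genes of replication licensing and the helicase divided within one machine. The MCM2 to MCM7 proteins form the ring that unwinds the DNA, with a single copy of each, and 4 of these 6 genes were lower in T24T under both scalings: MCM2 by a log2 difference of -0.49, MCM7 by -0.44, MCM5 by -0.41 and MCM4 by -0.18. The MCM4 call was lost without a floor (limma's Benjamini-Hochberg adjusted p = 0.0883). MCM2 had 30.8 and 29.4 RPKM in T24T BCUC-1 and vector, against 43.5 and 42.1 in UMUC3 BCUC-1 and vector. MCM6 was higher, with 25.8 RPKM in both T24T libraries, against 20.9 and 21.1 in UMUC3 BCUC-1 and vector (log2 difference 0.29, limma's Benjamini-Hochberg adjusted p = 0.00861, not called with equal medians). MCM3, with -0.09, was not called and became a lower call with equal medians, at -0.24. RPKM divides by the listed gene length, which may not be that of the transcript expressed. Ratios between genes are therefore read across the lines only. MCM2 stood at 1.19 and 1.14 times MCM6 per length in T24T BCUC-1 and vector, against 2.08 and 1.998 times in UMUC3 BCUC-1 and vector. MCM5 stood at 0.642 and 0.613 times MCM6 in T24T BCUC-1 and vector, against 1.07 and 1.0015 times in UMUC3 BCUC-1 and vector.

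The 4 factors that load or complete the helicase were higher in T24T as deposited, CDC6 and GINS2 under both scalings. CDC6, which loads the ring with CDT1, had 33.9 and 33.1 RPKM in T24T BCUC-1 and vector, against 21.6 and 22.6 in UMUC3 BCUC-1 and vector (log2 difference 0.58, SE 0.069, limma's Benjamini-Hochberg adjusted p = 0.000357). GINS2, a subunit of the GINS complex of the active helicase, differed by 0.50. CDT1, by 0.27, and CDC45, the other helicase partner, by 0.21, were not called with equal medians, without a floor or with quantile normalization. The CDT1 call was also lost without the treatment term.

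The 4 genes of the fork clamp and nucleotide supply included 3 higher and 0 lower calls. PCNA, the sliding clamp of the DNA polymerases, had 152 and 145 RPKM in T24T BCUC-1 and vector, against 79.5 and 80.02 in UMUC3 BCUC-1 and vector. The lines were 1.86-fold apart, the highest difference among the 21 S phase members (log2 difference 0.88, SE 0.063, limma's Benjamini-Hochberg adjusted p = 3.74e-05). TK1, thymidine kinase, and RRM2, a subunit of ribonucleotide reductase, both differed by 0.46 and were called under both scalings. TYMS, with 176 and 170 RPKM in T24T BCUC-1 and vector, against 162 and 154 in UMUC3 BCUC-1 and vector, was not called, and its log2 difference of 0.13 changed sign with equal medians.

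CHEK1, the kinase that restrains the cycle when replication stalls, had the lowest difference among the 21 S phase members. It had 10.0 and 9.92 RPKM in T24T BCUC-1 and vector, against 17.8 and 18.5 in UMUC3 BCUC-1 and vector, 0.55 times as much (log2 difference -0.80, SE 0.076, limma's Benjamini-Hochberg adjusted p = 0.000123). BRCA1, which acts in repair by homologous recombination, was close in all 4 libraries, at 11.4 and 11.5 RPKM in T24T BCUC-1 and vector and 10.7 and 11.1 in UMUC3 BCUC-1 and vector, and was not called.

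Among the 5 mitotic kinases and passenger complex genes, 3 were higher in T24T and 2 lower. PLK1, a kinase of mitotic entry and spindle assembly, had 27.5 and 27.9 RPKM in T24T BCUC-1 and vector, against 14.7 and 13.9 in UMUC3 BCUC-1 and vector (log2 difference 0.90, SE 0.072, limma's Benjamini-Hochberg adjusted p = 5.88e-05). AURKA, the kinase of the spindle poles, had 57.9 and 57.4 RPKM in T24T BCUC-1 and vector, against 31.1 and 32.2 in UMUC3 BCUC-1 and vector (log2 difference 0.84, SE 0.065, limma's Benjamini-Hochberg adjusted p = 5.08e-05). AURKB, the kinase of the chromosomal passenger complex, ran the other way at -0.26, a call lost without a floor (limma's Benjamini-Hochberg adjusted p = 0.0788). Its partner BIRC5, survivin, was lower too, at -0.38. The third passenger gene measured, CDCA8, borealin, was higher by 0.23 and was not called with equal medians. AURKA stood at 1.25 and 1.23 times AURKB per length in T24T BCUC-1 and vector, against 0.524 and 0.606 times in UMUC3 BCUC-1 and vector. The ratio was thus higher in T24T than in UMUC3, by 1.13 on the log2 scale.

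The 5 genes of the spindle checkpoint and the anaphase-promoting complex (APC/C) gave 2 higher and 3 lower calls. BUB1, a checkpoint kinase of the kinetochore, had 32.3 and 32.8 RPKM in T24T BCUC-1 and vector, against 15.6 and 15.1 in UMUC3 BCUC-1 and vector, 2.12-fold (log2 difference 1.04, SE 0.070, limma's Benjamini-Hochberg adjusted p = 2.83e-05). BUB1B, whose protein BubR1 inhibits the APC/C, differed by 0.19 and was not called with equal medians. The lower members were TTK, the kinase that starts the checkpoint signal, at -0.40, CDC20, the APC/C activator, at -0.38, and UBE2C, its ubiquitin-conjugating enzyme, at -0.47. CDC20 had 87.7 and 84.5 RPKM in T24T BCUC-1 and vector, against 119 and 106 in UMUC3 BCUC-1 and vector. UBE2C had 79.0 and 77.4 RPKM in T24T BCUC-1 and vector, against 108 and 109 in UMUC3 BCUC-1 and vector, so both APC/C genes had their lowest levels in T24T vector.

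The 4 centromere and kinetochore genes gave 3 higher and 0 lower calls. CENPE, a kinesin that moves chromosomes to the spindle equator, had 24.1 and 24.8 RPKM in T24T BCUC-1 and vector, against 10.9 and 13.2 in UMUC3 BCUC-1 and vector (log2 difference 0.97, SE 0.083, limma's Benjamini-Hochberg adjusted p = 8.04e-05). CENPF, a large protein of the outer kinetochore, had 67.4 and 68.9 RPKM in T24T BCUC-1 and vector, against 35.4 and 36.2 in UMUC3 BCUC-1 and vector (log2 difference 0.91, SE 0.063, limma's Benjamini-Hochberg adjusted p = 3.28e-05). NDC80, which binds microtubules, differed by 0.31 and was not called with equal medians. CENPA, the histone H3 variant of centromeres, had 23.9 and 24.7 RPKM in T24T BCUC-1 and vector, against 22.8 and 20.002 in UMUC3 BCUC-1 and vector, and was not called.

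Of the 5 spindle motor and mitotic chromosome genes, 3 were higher and 1 lower. TPX2, which activates Aurora A on the spindle, had 186 and 182 RPKM in T24T BCUC-1 and vector, against 130.4 and 126 in UMUC3 BCUC-1 and vector (log2 difference 0.52). MKI67, the Ki-67 proliferation marker that coats mitotic chromosomes, had 96.6 and 97.5 RPKM in T24T BCUC-1 and vector, against 73.8 and 70.0 in UMUC3 BCUC-1 and vector (log2 difference 0.43, SE 0.064, limma's Benjamini-Hochberg adjusted p = 0.000986). TOP2A, topoisomerase II alpha, differed by 0.28 and was not called with equal medians. KIF20A, a kinesin of cytokinesis, was lower at -0.48. KIF11, the kinesin that parts the spindle poles, was not called as deposited, at 0.17, and was called in some other settings.

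Neighbouring members could differ in opposite directions. TK1 (chr17:78174075-78187233) and BIRC5 (chr17:78214186-78225636), as the table places them with coordinates that match GRCh38, lie 26953 bases apart, and their line differences were 0.46 and -0.38. The 45 genes lay on 18 chromosomes.

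BCUC-1 was then set against vector. Over both lines limma called 0 of 45 members and 0 of 15415 genes at a Benjamini-Hochberg adjusted p under 0.05, a background of 0%. The smallest limma Benjamini-Hochberg adjusted p was 0.104 over all genes and 0.9975 over the members. At an unadjusted limma p under 0.05 there were 652 genes and 0 members, and limma-voom on recovered reads called 13 genes, 0 of them members. The members' differences, BCUC-1 minus vector over both lines on the log2 scale, ran between -0.17 for CDK1 and 0.20 for CDT1, with standard errors between 0.061 and 0.098 and a median of 0.024 against 0.0035 for all genes. With 1 library per group these fits take the spread from a single residual degree of freedom and from all genes.

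Within T24T, 0 of 45 members were 2-fold apart, against 0.602% of the 14946 genes over the floor. The level with BCUC-1 lay above that with vector for 30 members and below it for 15, with a median log2 difference of 0.025 and a range between -0.064 (CDC45) and 0.17 (CDT1). The SD over members, 0.052, was smaller than the 0.11 of genes in the same range of levels. The median was -0.016 for all genes and 0.0022 for genes in the same range of levels. With equal medians 41 members lay above and 4 below. Exact 95% intervals of the BCUC-1 to vector ratio of depth-scaled reads, which cover counting error only, lay above 1 for 8 members, below 1 for 2 and held 1 for 35. Of all genes over the floor 5.41% lay above 1 and 9.98% below, and of genes in the members' range of levels 8.54% above and 8.88% below. With 1 library per group there was no test.

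Within UMUC3, 0 of 45 members were 2-fold apart, against 0.753% of the 14347 genes over the floor. The level with BCUC-1 lay above that with vector for 25 members and below it for 20. The members' median was 0.036, beside 0.031 for all genes and 0.019 for genes in the same range of levels. The members were more spread than in T24T, between -0.35 (CDK1) and 0.26 (FOXM1), with an SD of 0.13 beside 0.18 for genes in the same range of levels. The ratio intervals lay above 1 for 18 members, below 1 for 8 and held 1 for 19. Of all genes over the floor 21% lay above 1 and 14.9% below, and of genes in the members' range of levels 26.6% above and 21.5% below. Mitochondrial genes took 5.30% of reads in UMUC3 BCUC-1 and 6.33% in UMUC3 vector, and 3.84% in T24T BCUC-1 and 3.92% in T24T vector. The part of this difference in the results was not tested.

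The UMUC3 differences moved with the GC content of the transcript. Over the 45 members, whose longest transcripts had between 35.3% and 64.9% GC, the Spearman rho of the UMUC3 difference with GC content was 0.670, beside 0.568 over 11606 genes. In T24T it was 0.406 over members and 0.0229 over 12060 genes. These points share a pair of libraries, so the values are descriptions. Among the 15 members of lowest GC (up to 43.2%), 4 lay above vector in UMUC3 BCUC-1 with a median of -0.052, and among the 15 of highest GC (at least 51.5%) 12 did so with a median of 0.085. In T24T the same sets had 7 members above vector with a median of -0.0060 and 12 above with a median of 0.052. After the GC trend of all genes in UMUC3 was removed, the members lay between -0.24 (CDK1) and 0.16 (CCNB2), with an SD of 0.092 and 22 above and 23 below 0.

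**Figure D4:**
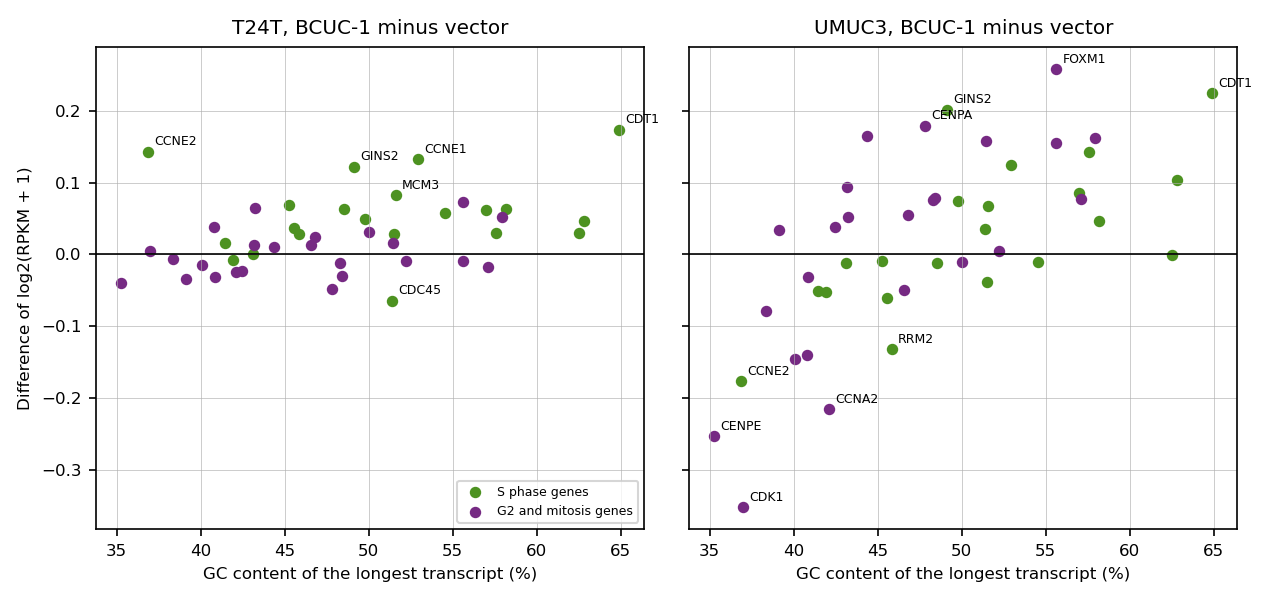
BCUC-1 minus vector on log2(RPKM + 1) in T24T (left) and UMUC3 (right) against the GC content of each gene's longest transcript, with S phase genes in green and G2 and mitosis genes in purple; each point is 1 gene in 1 pair of libraries. The UMUC3 points climb with GC content, between CDK1 at -0.35 and FOXM1 at 0.26, and the T24T points lie between -0.064 and 0.17.

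CDK1 was the member with the largest UMUC3 difference. It had 2634 reads (29.5 RPKM) in UMUC3 BCUC-1 and 3949 reads (37.9 RPKM) in UMUC3 vector, a ratio of 0.778 (0.740 to 0.817), and 3271 reads in T24T BCUC-1 and 3274 in T24T vector, a ratio of 1.00 (0.955 to 1.05). Its log2 difference in UMUC3 was -0.35 as deposited and -0.24 with the GC trend removed. CCNA2, its partner late in S phase, had 1875 reads (29.5 RPKM) in UMUC3 BCUC-1 and 2550 reads (34.4 RPKM) in UMUC3 vector, a ratio of 0.857 (0.807 to 0.910), and its difference of -0.22 was -0.19 with the GC trend removed. CCNA2 shares 9.08% of its bases with EXOSC9, which had 2484 reads in UMUC3 BCUC-1 and 3251 in UMUC3 vector. RRM2 had a UMUC3 ratio of 0.911 (0.876 to 0.947), and its difference was -0.13 as deposited and -0.15 with the trend removed. For CENPE, with 35.3% GC the member of lowest GC content, the UMUC3 difference was -0.25 as deposited and -0.096 with the trend removed.

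Above vector in UMUC3, FOXM1 had 30.2 RPKM in UMUC3 BCUC-1 and 25.1 RPKM in UMUC3 vector, a ratio of 1.20 (1.15 to 1.26), and 23.5 and 22.3 RPKM in T24T BCUC-1 and vector, a ratio of 1.05 (0.999 to 1.11). The UMUC3 difference was 0.26, and 0.16 with the GC trend removed, and the gene shares 15.9% of its bases with ITFG2. GINS2 had a UMUC3 ratio of 1.18 (1.03 to 1.34), with differences of 0.20 and, trend removed, 0.15. CENPA had a UMUC3 ratio of 1.14 (1.04 to 1.24), with differences of 0.18 and, trend removed, 0.13. CCNB2 had a UMUC3 ratio of 1.12 (1.07 to 1.18), and its difference was 0.16 either way. These 4 genes, the highest members with the trend removed, lay above vector in UMUC3 BCUC-1 under both measures. Other members high as deposited fell further with the trend removed. The UMUC3 difference went from 0.23 to 0.042 for CDT1, 0.16 to 0.041 for CDC20 and 0.16 to 0.088 for CDCA8. It went from 0.15 to 0.056 for AURKB and 0.14 to 0.022 for MCM7.

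Both lines gave the same sign for 22 of 45 members, with 16 above vector in both and 6 below in both. Over the members the Pearson r of the T24T and UMUC3 differences was 0.272 and the Spearman rho 0.244. In 3 members the ratio intervals lay above 1 in both lines, as they did in 1.97% of all genes over the floor in both lines and in 2.69% of those in the members' range of levels. CDT1 had a ratio of 1.15 (1.02 to 1.30) in T24T and 1.20 (1.05 to 1.38) in UMUC3. MCM3 had a ratio of 1.06 (1.03 to 1.09) in T24T and 1.05 (1.02 to 1.08) in UMUC3. TYMS had a ratio of 1.03 (1.01 to 1.06) in T24T and 1.05 (1.02 to 1.08) in UMUC3. With the GC trend removed the UMUC3 log2 differences were 0.042 for CDT1, -0.0022 for MCM3 and 0.019 for TYMS. In 0 members did both intervals lie below 1, against 1.88% of all genes. Of the 6 genes of the MCM ring, 6 lay above vector in T24T BCUC-1, MCM6 by 0.00033 only, and 4 in UMUC3 BCUC-1, or 2 there with the GC trend removed.

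S phase genes and G2 and mitosis genes were set side by side under BCUC-1, a split made after values were seen. The 21 S phase genes had a median log2 difference of 0.049 in T24T and -0.0013 in UMUC3. The 24 G2 and mitosis genes had -0.0074 in T24T and 0.046 in UMUC3, so the order of the medians was not the same in both lines. The S phase genes had a median GC content of 51.4% and the G2 and mitosis genes 45.5%.

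Genes of the same phases outside the 45 were read for comparison. Of all genes tested 40.8% were higher in T24T and 29.6% lower. The calls in these lists were not read with equal medians. Of 31 other S phase genes, 15 were higher in T24T, 9 lower and 7 not called, with a median of 0.21. The highest were SLBP, which binds histone messages, at 0.92, CHAF1B, a chromatin assembly factor subunit, at 0.88 and BLM, a helicase, at 0.85. The lowest were the DNA polymerase genes POLD3 at -1.12 and POLA1 at -1.01 and the primase gene PRIM1 at -0.65. POLD3 had 14.4 and 13.8 RPKM in T24T BCUC-1 and vector, against 31.8 and 32.0 in UMUC3 BCUC-1 and vector. Of 36 other G2 and mitosis genes, 15 were higher in T24T, 10 lower and 11 not called, with a median of 0.13. TMPO, a nuclear envelope protein, at 1.07, ANP32E, a histone chaperone, at 1.06 and HJURP, the chaperone that deposits CENPA, at 1.06 were the highest, and ANLN at -0.74, KIF23 at -0.68 and CDC25C at -0.66 the lowest. HJURP had 49.8 and 50.7 RPKM in T24T BCUC-1 and vector, against 25.0 and 22.4 in UMUC3 BCUC-1 and vector, whereas CENPA itself was not called.

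With BCUC-1, 0 genes of either list were called over both lines by limma and 0 were 2-fold apart in either line. The other S phase genes had median differences of 0.022 in T24T and -0.050 in UMUC3 (0.00026 with the GC trend removed). The other G2 and mitosis genes had -0.011 in T24T and -0.034 in UMUC3 (-0.015 with the trend removed). The highest in T24T were DTL at 0.15 and FEN1 at 0.11 and the lowest PSRC1 at -0.23. In UMUC3 the highest were FEN1, which cuts flaps of Okazaki fragments, at 0.20 (0.12 with the GC trend removed) and NCAPD2 at 0.18 (0.098 with it removed), and the lowest TIPIN at -0.27 (-0.21 with it removed).

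Of 18 G1 control genes 17 passed the floor, and 6 were higher in T24T, 7 lower and 4 not called. Of all genes tested 40.8% were higher and 29.6% lower, and this list was not read with equal medians. MYBL2, B-Myb, which activates G2 and mitosis genes with MuvB, had 95.9 and 96.5 RPKM in T24T BCUC-1 and vector, against 48.4 and 38.8 in UMUC3 BCUC-1 and vector (log2 difference 1.13, SE 0.088, limma's Benjamini-Hochberg adjusted p = 5.34e-05). CDK4, the G1 kinase, had 28.6 and 26.6 RPKM in T24T BCUC-1 and vector, against 66.7 and 66.6 in UMUC3 BCUC-1 and vector (log2 difference -1.24, SE 0.067, limma's Benjamini-Hochberg adjusted p = 1.16e-05). CDKN2A, which encodes the CDK4 inhibitor p16, had 611 and 664 reads in T24T BCUC-1 and vector, against 1 and 0 reads in UMUC3 BCUC-1 and vector. CCND2, a cyclin partner of CDK4, had 20 and 29 reads in T24T BCUC-1 and vector, against 1065 and 1225 in UMUC3 BCUC-1 and vector. These 4 genes were picked after the values were seen and are not the 4 largest differences of the list. CDKN2B, at 1.24, lay above MYBL2, with 130 and 131 reads in T24T BCUC-1 and vector, against 0 and 0 in UMUC3 BCUC-1 and vector. Under BCUC-1, 0 genes of this list were called over both lines by limma and 0 were 2-fold apart in either line. The UMUC3 differences had a median of -0.013. They ran between -0.22 for CDK6 (-0.13 with the GC trend removed) and 0.31 for MYBL2 (0.18 with it removed). In T24T they ran between -0.099 for CDKN2A and 0.10 for CDK4.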

How the data were processed

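The deposited table gives RPKM per gene and library, which the authors computed, and, per the file headers, a gene Length in bases (unit "other"). The submitters' processing notes name Bowtie 0.12.2. Genome build, annotation and strand setting were not given in the sources used here. The coordinates matched GRCh38, with 96.5% of 22720 single-symbol genes sharing a start or end with GENCODE 29. RPKM times length gave whole reads for 100% of values, within 0.001 reads, and these gave the depths and ratios.

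The members, lists, roles and tests were chosen with earlier results of these data known. The fit used log2(RPKM + 1) and a floor of 1 RPKM in at least 2 libraries. Both terms, line and treatment, were tested two-sided by limma with its trend option (version 3.58.1, R 4.3.3), and p was adjusted by Benjamini-Hochberg over all 15415 genes. Within a line, with 1 library per group, a log2 difference of at least 1 was counted, and ratios carry exact conditional (Clopper-Pearson) 95% intervals for counting error only. GC content came from each symbol's longest transcript in GENCODE 29 (80.8% of genes over the floor, 45 of 45 members). Its trend was taken as the median difference in 20 GC bins. All 45 members could be named, all G1 control genes, and from the other lists the 3 highest and 3 lowest by each difference. The limma fit was tested on simulated reads with little spread beyond counting error, so that test does not cover variation between cultures. The other settings tried were a pseudocount of 0.1, no floor, a floor of 5 RPKM, equal medians, quantile normalization, limma-voom on recovered reads, and models without line or treatment.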

Additional observations from a re-analysis of the deposited data

Results flagged for a closer look

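In CCNE2, a cyclin E, the BCUC-1 and vector libraries stood in opposite order in the lines. It had 1517 reads in T24T BCUC-1 and 1369 in T24T vector, a ratio of 1.11 (exact 95% interval 1.03 to 1.20), and 978 reads in UMUC3 BCUC-1 and 1304 in UMUC3 vector, a ratio of 0.874 (0.804 to 0.951). The log2 differences were 0.14 in T24T and -0.18 in UMUC3, or -0.062 in UMUC3 with the GC trend removed, and differed by 0.3201. CCNE2 shares 37% of its bases with INTS8, which had 1612 and 1497 reads in T24T BCUC-1 and vector, and 1434 and 1795 in UMUC3 BCUC-1 and vector. The part of this overlap in the CCNE2 values was not tested. TOP2A had a ratio of 0.976 (0.958 to 0.994) in T24T and of 1.02 (1.0035 to 1.04) in UMUC3. Its log2 differences of -0.035 in T24T and 0.033 in UMUC3 differed by -0.06831. With equal medians they were -0.0013 in T24T and -0.0054 in UMUC3, no longer in opposite order, and with the GC trend removed -0.014 in T24T and 0.125 in UMUC3. With 1 library per group neither difference between the lines was tested, and the intervals cover counting error only.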

How the results depend on the processing

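Between the lines, 10847 genes were called by limma as deposited and 6780 with a floor of 5 RPKM, where fewer genes were tested. With equal medians 13 members were called higher in T24T in place of 24. Higher and lower calls were 16 and 10 without a floor, 26 and 13 with a floor of 5 RPKM, and 21 and 13 with quantile normalization. They were 25 and 13 with limma-voom on recovered reads, and 24 and 12 without the treatment term. Members called only in other settings were MCM3 with equal medians, CENPA with a floor of 5 RPKM and TYMS with quantile normalization. KIF11 was called with that floor, with limma-voom and without the treatment term. Quantile normalization lost the calls of CDK2, BUB1B, CDT1 and CDC45, and the model without the treatment term those of FOXM1 and CDT1. For BCUC-1 against vector over both lines, 0 genes were called as deposited, 1 with a pseudocount of 0.1, 60 with a floor of 5 RPKM, 4 with equal medians and 13 with limma-voom on recovered reads. The cause of these counts was not tested. Members called for BCUC-1 were 0 under each of these settings and also without a floor, with quantile normalization, without the line term and with the GC trend removed.

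No called member changed direction in any setting run. Of 270 values in UMUC3 over the members and settings, 24 moved beyond their counting interval, 21 of them with the GC trend removed, and 4 of 270 did so in T24T. The UMUC3 median over members was 0.036 as deposited, -0.0017 with equal medians and -0.0022 with the GC trend removed. The line term pairs BCUC-1 with vector within each line, and without it 0 genes were called. The least-read member had 438 reads. Within a group no second library shows how far its cultures vary.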
